A study of Mus musculus with 6 samples.

Results

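Imprinted genes are expressed mainly from the allele inherited from 1 parent, and many of them set how much a fetus, a placenta or a tissue grows. The 9 genes described here, *H19*, *Meg3*, *Rian*, *Mirg*, *Dlk1*, *Peg3*, *Plagl1*, *Grb10* and *Mest*, are imprinted genes of growth control, taken by symbol from the 54525 gene rows of the count files. Each symbol matched 1 row. *Igf2*, *Igf2r* and *Cdkn1c* were not among the genes chosen. The counts do not tell the parental alleles apart, so imprinting itself was not measured, and "maternal" and "paternal" below are background.

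The samples were cultures of C2C12, an established mouse myoblast line whose cells leave the cell cycle and fuse into multinucleated myotubes. Total RNA was sequenced from 3 samples of myoblasts before differentiation (day 0, D0) and 3 samples of myotubes on day 5 of differentiation (D5). All 6 samples were of WT genotype and had no treatment beyond the change of medium, so each group is the same single line at 1 time point. The study's methods grew the myoblasts in fetal bovine serum and differentiated them in a lower percentage of horse serum. Day of differentiation and serum therefore cannot be told apart. The labels give n = 3 cultured samples per group and not how independently they were grown, so the p-values measure only the spread between these samples, which may be partly technical.

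The D0 libraries held from 36555048 to 40895840 counts on genes and the D5 libraries from 25449759 to 25811300. Levels are in CPM, counts divided by the normalised library size and multiplied by the same constant in every library (edgeR's CPM). The 3 myoblast markers fell. The 5 proliferation markers fell from a summed level of 1702 to 1717 CPM at D0 to 89.2 to 99.2 CPM at D5. The 6 myotube markers rose from a sum of 5837 to 6241 CPM to one of 33217 to 34834 CPM. In bulk RNA, fewer cells of a type and less RNA per cell cannot be told apart. Each file also held synthetic ERCC spike-in RNAs, at 0.726% to 0.859% of all counts at D0 and 0.720% to 2.09% at D5. Scaling to them in place of the TMM factors used for CPM moved the median log2 fold change of all genes from 0.0022 to -0.58, and directions that changed under it are given with each gene.

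*H19* is a maternally expressed long noncoding RNA beside *Igf2*. It is the precursor of miR-675 and binds let-7 microRNAs in muscle cells. *Meg3*, *Rian* and *Mirg* are noncoding RNAs read from the maternal allele of the Dlk1-Dio3 domain on distal chromosome 12, where *Rian* hosts small nucleolar RNAs and *Mirg* hosts microRNAs, while *Dlk1*, a transmembrane protein related to Notch ligands, is read from the paternal allele of that domain. *Peg3* and *Plagl1* are paternally expressed zinc finger proteins that bind DNA. *Plagl1* can arrest the cell cycle and is known as a regulator of other imprinted genes. *Grb10* is an adaptor that binds the insulin and IGF1 receptors and dampens their signal, and *Mest* is a paternally expressed enzyme-like protein of the endoplasmic reticulum.

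A few sequences of these loci are shown as background. The microRNAs carried by *H19* and *Mest* are given as mature RNAs from RefSeq (GRCm38), 5′ to 3′, with the seed (bases 2 to 8) in capitals. Those of miR-675 lie within an exon of *H19*, on chromosome 7 from 142577112 to 142577133 (5p) and from 142577078 to 142577099 (3p) on the minus strand, and that of miR-335-5p lies within *Mest* on chromosome 6 from 30741314 to 30741336 on the plus strand. No 2 of the 3 share a seed.
miR-675-5p: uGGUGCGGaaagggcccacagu
miR-675-3p: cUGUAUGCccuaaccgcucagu
miR-335-5p: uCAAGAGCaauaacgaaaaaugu
The rows *Mir675* and *Mir335* held 0 counts in all 6 libraries. *Mir675* lies wholly under the same-strand exon of *H19*, where a read cannot be given to 1 gene, so its 0 says nothing on the microRNA. Counts of this kind follow the host transcript, not the mature microRNA.

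*Peg3* and the paternally expressed *Usp29* are read in opposite directions from starts only 146 bases apart. The stretch between them, chr7:6730432-6730577, is printed from the plus strand, the strand of *Usp29*, from RefSeq's GRCm38 promoter table, since both genes fell. It overlaps no exon of the GENCODE annotation. Capitals mark the motif CCAAT.
Peg3-Usp29 stretch: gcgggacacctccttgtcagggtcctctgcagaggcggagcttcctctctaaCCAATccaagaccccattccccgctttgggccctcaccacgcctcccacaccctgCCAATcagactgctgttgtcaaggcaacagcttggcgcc
It held CCAAT 2 times, searched on both strands, and 24.0% of the 32851 promoter windows of the same 146-base length held CCAAT at least 1 time. The E-box CANNTG, the site of the myogenic regulators, did not occur in these letters, whereas 46.7% of the windows held it. The stretch held 5 CG dinucleotides, against a median of 4. CCAAT was looked for after the sequence had been read, and a match of letters is not a bound site.

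Of the 9 genes, 5 had more than 3 counts in a library and were tested. *H19*, *Grb10* and *Mest* rose (3 genes) and *Peg3* and *Plagl1* fell (2 genes) in edgeR's quasi-likelihood test at an adjusted p under 0.05. All 5 lay over the cut of the filter on low counts in all 6 libraries, so none was tested only because of 1 group. The background was high, since 82.9% of the 16290 genes tested passed, 42.2% higher and 40.8% lower at D5. A call alone therefore sets these genes apart from no others, and their sizes are described below. The other 4, *Meg3*, *Mirg*, *Dlk1* and *Rian*, held 0 or 1 count in every library.

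**Figure D1:**
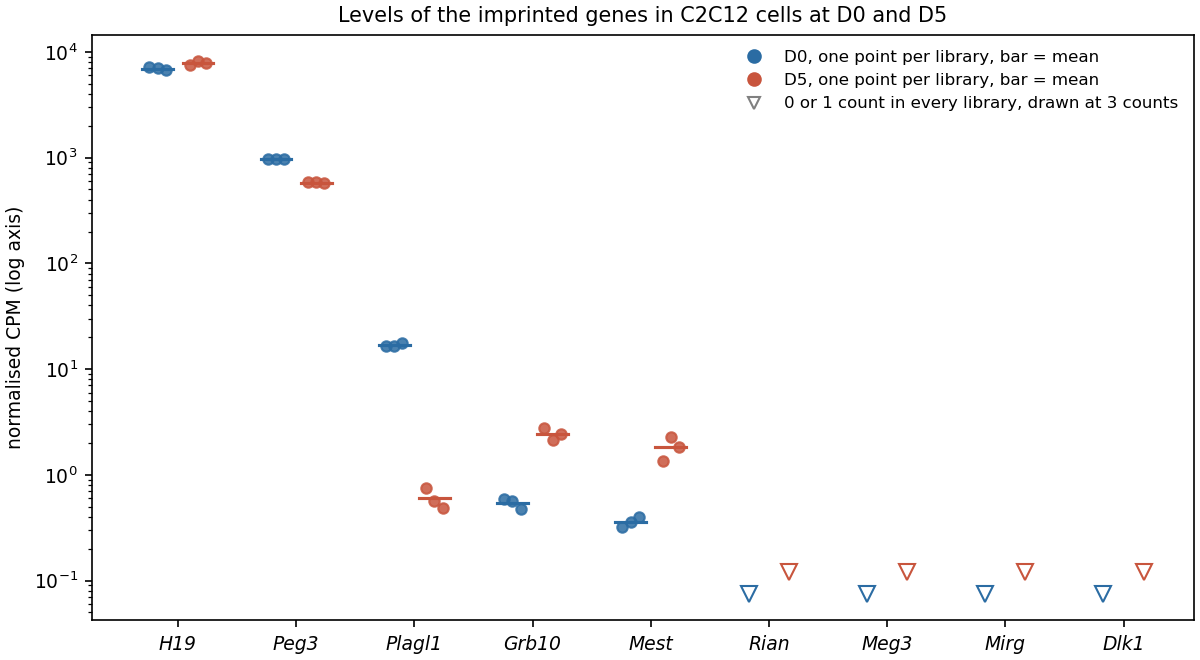
Levels of the 9 imprinted genes, in normalised CPM on a log axis, in the 3 D0 (blue) and 3 D5 (red) libraries, with 1 point per library and a bar at the group mean. *H19* lay between 6709 and 8138 CPM in every library, *Plagl1* dropped from a mean of 16.9 CPM to one of 0.602 CPM, and *Rian*, *Meg3*, *Mirg* and *Dlk1* are open triangles drawn at the limit of 3 counts because they held 0 or 1 count.

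*H19* (ENSMUSG00000000031.16, chromosome 7 of GRCm38 from 142575529 to 142578143, minus strand) was by far the most abundant of the 9. Its counts were 268852, 294343 and 270376 in myoblasts and 188228, 200716 and 196396 in the shallower myotube libraries, which is 7171, 6996 and 6709 CPM at D0 and 7488, 8138 and 7888 CPM at D5. Every D5 library lay above every D0 library in CPM, by a small margin, as was the case for 42.2% of all genes tested. The RNA took 0.717% ± 0.0207 of all gene counts at D0 and 0.761% ± 0.0299 at D5 (SD, n = 3 each) and was the fifth most counted gene row in both groups. Its log2 fold change was 0.17 (SE 0.037, adjusted p = 1.1e-04, edgeR's quasi-likelihood test), a level at D5 that was 113% of that at D0.

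This small rise depended on the scaling. In TPM (each count divided by the exonic length of its gene, then scaled to the same total in every library) the groups overlapped, which 83.6% of all genes tested did not, at 9918, 9870 and 9568 at D0 and 9658, 10098 and 9888 at D5. Under ERCC scaling the log2 fold change of *H19* was -0.38 (adjusted p = 0.58, edgeR). Ranked by TPM, *H19* was the fifth gene row at D0 and the sixth at D5.

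*Peg3* (ENSMUSG00000002265.16, chromosome 7 from 6703892 to 6730431, minus strand) was second in level and fell. Its levels were 962, 980 and 973 CPM in the D0 libraries and 582, 583 and 571 CPM in the D5 libraries. The libraries within a group lay close together, and every D5 library was below every D0 library, as in 41.1% of all genes tested, with a D5 level that was 59.6% of the D0 level and a log2 fold change of -0.75 (SE 0.031, adjusted p = 1.1e-19, edgeR). It fell under ERCC scaling as well, by 1.31 on the log2 scale (adjusted p = 0.037, edgeR).

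*Plagl1* (ENSMUSG00000019817.18, chromosome 10 from 13060504 to 13131694, plus strand) had the largest change of the 5. The D0 libraries held 620, 700 and 704 of its counts and the D5 libraries 19, 14 and 12. Levels of 16.5, 16.6 and 17.5 CPM in myoblasts fell to 0.756, 0.568 and 0.482 CPM in myotubes, so that 3.59% of the level at D0 was left. That was a 27.9-fold lower mean, with a log2 fold change of -4.80 (SE 0.13, adjusted p = 1.3e-24, edgeR). The 5 proliferation markers fell over the same comparison with a median log2 fold change of -4.91, and their part in the change of *Plagl1* was not tested.

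*Grb10* (ENSMUSG00000020176.17, chromosome 11 from 11930508 to 12038683, minus strand) was scarce in both groups and rose. It had 22, 24 and 19 counts at D0 and 69, 53 and 61 at D5, or 0.587, 0.570 and 0.471 CPM against 2.74, 2.15 and 2.45 CPM. All D5 libraries lay above all D0 libraries, at a mean 4.49 times that of D0 and a log2 fold change of 2.17 (SE 0.21, adjusted p = 7.8e-11, edgeR).

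*Mest* (ENSMUSG00000051855.15, chromosome 6 from 30723547 to 30748465, plus strand) was also scarce and rose. Its counts were 12, 15 and 16 at D0 and 34, 56 and 46 at D5, which is 0.320, 0.357 and 0.397 CPM against 1.35, 2.27 and 1.85 CPM. The groups did not overlap, like those of 83.3% of all genes tested in either direction. Its log2 fold change was 2.33 (SE 0.26, adjusted p = 1.5e-09, edgeR). Of its exonic length, 23.1% lies opposite exons of *Copg2*, a coat protein gene read on the other strand. The counts kept strands apart, as described under the processing, but whether stray reads of *Copg2* were counted in *Mest* was not tested. Under ERCC scaling *Grb10* and *Mest* were still higher, by 1.55 (adjusted p = 0.020) and 1.80 (adjusted p = 0.0082, edgeR) on the log2 scale.

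Levels of different genes are compared per exonic length, in TPM. At D0 the order was *H19* (9785 ± 190 TPM), *Peg3* (252 ± 5.77), *Plagl1* (7.47 ± 0.330), *Mest* (0.314 ± 0.0385) and *Grb10* (0.206 ± 0.0212; SD, n = 3 each). At D5 *Plagl1* was last of the 5, behind *Mest* and *Grb10*. The values then were 9882 ± 220 TPM for *H19*, 135 ± 3.33 for *Peg3*, 1.43 ± 0.335 for *Mest*, 0.837 ± 0.118 for *Grb10* and 0.239 ± 0.0603 for *Plagl1* (SD, n = 3 each). Genes next to each other in either order did not overlap over the libraries of that group. The detected genes thus covered a wide range, from one of the most counted RNAs of the cell to *Grb10* and *Mest*, with fewer than 100 counts in any library.

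**Figure D2:**
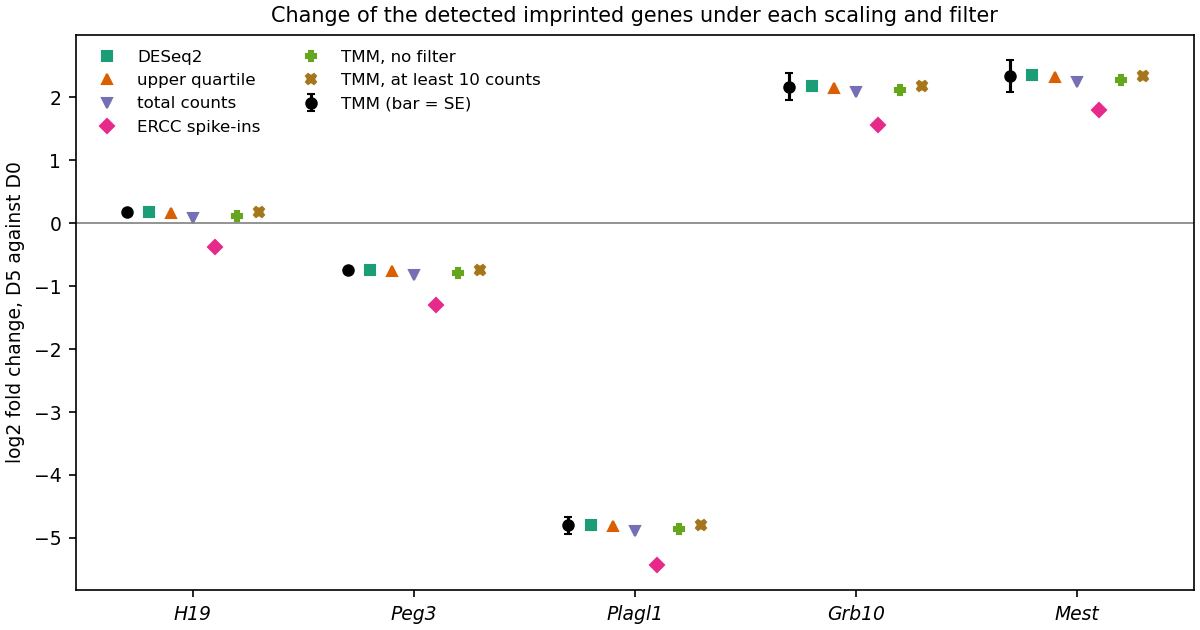
Log2 fold change of the 5 detected genes, D5 against D0, under TMM scaling (black, bar = SE from edgeR) and under 6 other scalings or filters, with 1 marker each. The markers of *Peg3*, *Plagl1*, *Grb10* and *Mest* stay on 1 side of 0, whereas *H19* is at 0.17 under TMM and at -0.38 under ERCC scaling.

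The 3 noncoding RNAs of the Dlk1-Dio3 domain and *Dlk1* were not detectable at this depth. *Meg3* (ENSMUSG00000021268.17, chromosome 12 from 109541001 to 109571726), *Mirg* (ENSMUSG00000097391.8, from 109729764 to 109749460) and *Dlk1* (ENSMUSG00000040856.17, from 109452823 to 109463336) had 0 counts in all 6 libraries. *Rian* (ENSMUSG00000097451.10, from 109603940 to 109661716) had 0, 0 and 1 count at D0 and 0, 0 and 1 count at D5. A count of 0 allows up to 3 counts, which on the normalised scale is on average 0.0753 CPM in the D0 libraries and 0.120 CPM in the D5 libraries, for counting error only. No fold change is given for these genes.

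In the annotation used here, no more than 5.03% of the exonic length of *Meg3*, *Rian*, *Mirg* or *Dlk1* is shared with another gene on the same strand, where reads would go uncounted. Few other rows of the domain held counts. From *Dlk1* to *Dio3*, the thyroid hormone-inactivating deiodinase at its far end, 828 kb of chromosome 12 held 118 gene rows, of which 113 were at 0 in all libraries. Among them were 94 rows of small RNAs, including 67 microRNAs and 23 small nucleolar RNAs, and none of the 94 held a count. Of these, 20 lie wholly under exons of another gene on the same strand, where a 0 says nothing, and 68 lie under none. Mature microRNAs were not measured, so a 0 in a microRNA row does not speak to them in either case. *Rtl1*, a paternally expressed gene derived from a retrotransposon, and *Dio3* itself were also at 0.

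Only 3 rows of the domain had more than 3 counts in a library, and none of them is a gene named above. The lincRNA *Gm34719* had 37, 27 and 34 counts at D0 and 0 in each D5 library, so it was at least 6.84-fold lower at D5 against the limit of 3 counts. The pseudogene *Gm3379* had at most 5 counts and the lincRNA *Gm34667* at most 4. Outside the domain, *Begain*, a paternally expressed gene 385 kb before *Dlk1*, had 2, 2 and 2 counts at D0 and 26, 24 and 23 at D5, at least 12.98-fold higher against the limit of 3 counts (adjusted p = 8.6e-11, edgeR). *Begain* was tested only because its D5 libraries passed the filter on low counts, so its p-value is no separate support. Near *Begain*, *Wars*, a tryptophan tRNA synthetase, stood at 90.9 ± 3.57 CPM in myoblasts and 61.4 ± 2.46 CPM in myotubes (SD, n = 3 each). The adjusted p of *Wars* in edgeR was 7.8e-14, and 0.075 under ERCC scaling. *Wdr25*, also nearby, was higher at D5, with a log2 fold change of 0.53 (adjusted p = 5.1e-06, edgeR). Under ERCC scaling the change of *Wdr25* was -0.061 (adjusted p = 0.94, edgeR).

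**Figure D3:**
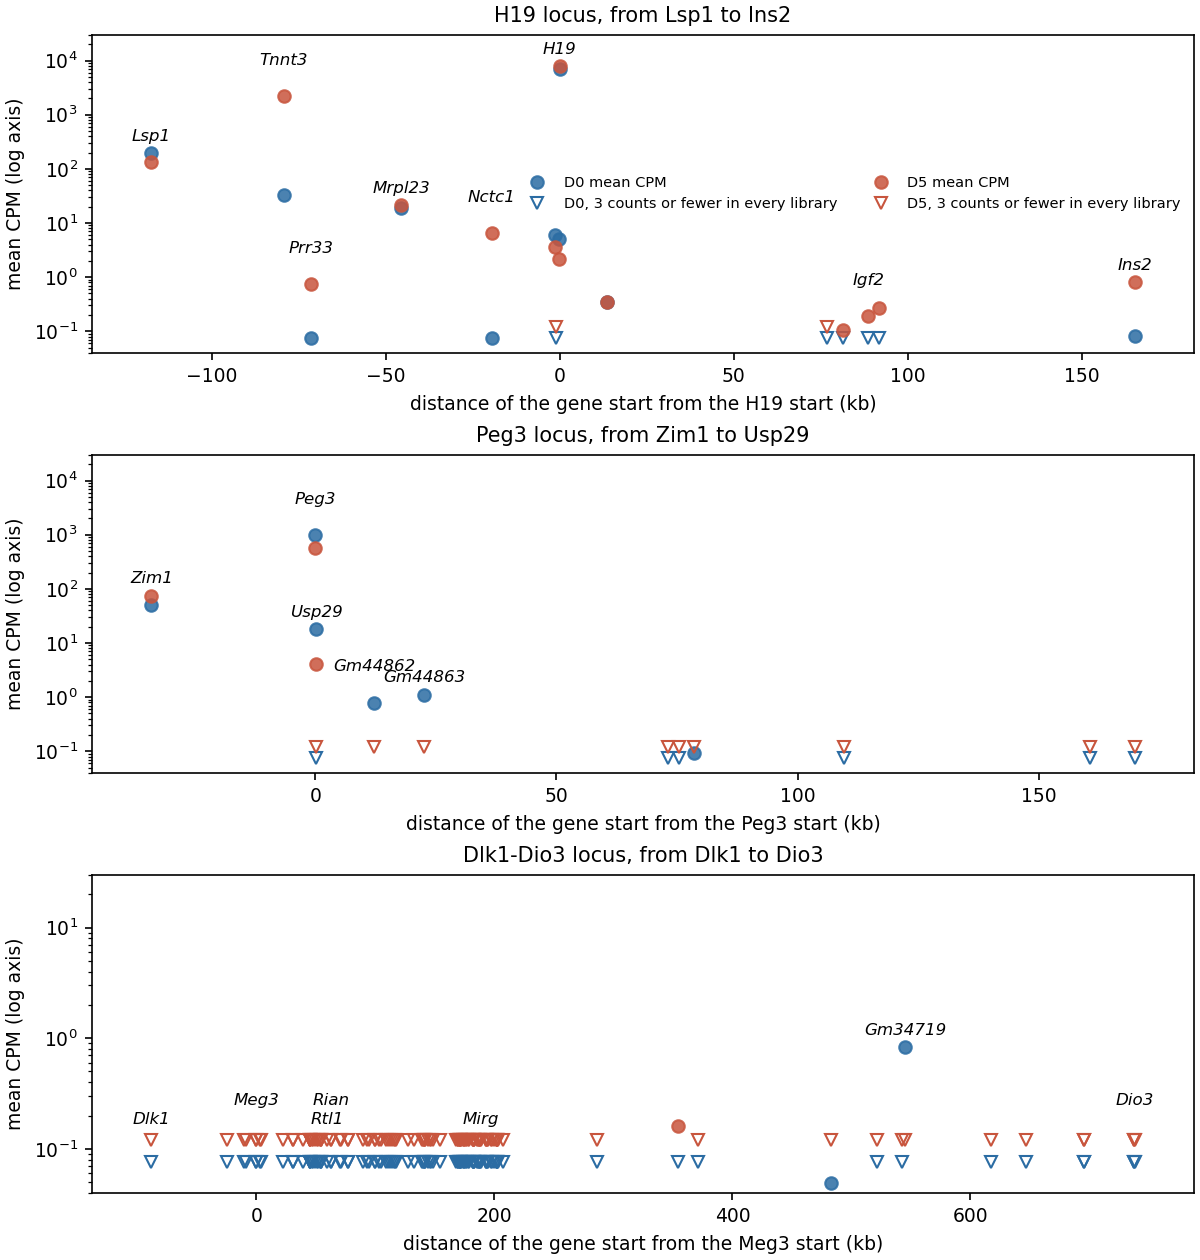
Mean level, in normalised CPM on a log axis, of every gene row at the H19, Peg3 and Dlk1-Dio3 loci, placed by the distance of the gene start from that of *H19*, *Peg3* or *Meg3* in kb. Filled points are D0 (blue) and D5 (red) means, and open triangles are groups with 3 counts or fewer in every library. In the lowest panel almost every row is a triangle, while *H19* and *Peg3* stand above most of their neighbours.

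At the H19 locus some neighbours of *H19* moved much more than *H19* itself and others did not. *Gm33148*, a lincRNA that starts 13.6 kb from the start of *H19*, was at 0.026 on the log2 scale without a call, and *Mrpl23*, a mitochondrial ribosomal protein gene 34.8 kb from *H19*, at 0.20 (adjusted p = 0.0036, edgeR), a call lost with total counts (adjusted p = 0.086) and at -0.40 under ERCC scaling. *Nctc1*, a noncoding RNA read in muscle across an enhancer region shared with *Igf2* and *H19*, begins 19.5 kb from the start of *H19*. It had 4, 3 and 2 counts at D0 and 170, 141 and 170 at D5, from 0.0759 ± 0.0288 to 6.44 ± 0.623 CPM (SD, n = 3 each). Its log2 fold change was 6.35 (SE 0.24, adjusted p = 1.2e-20, edgeR). *Nctc1* passed the filter on low counts only through the D5 libraries, where it was high. *Tnnt3*, the fast skeletal troponin T farther along the chromosome, rose from 33.1 ± 3.34 to 2215 ± 86.2 CPM (log2 fold change 6.07, adjusted p = 2.7e-37, edgeR). *Lsp1*, a leukocyte actin-binding protein, was lower at 133 ± 3.15 CPM against 194 ± 1.39 CPM (SD, n = 3 each; adjusted p = 1.2e-15, edgeR), a call that ERCC scaling did not keep (adjusted p = 0.082).

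On the other side of *H19*, *Ins2*, an insulin gene, had 1, 5 and 4 counts at D0 and 18, 18 and 24 at D5 (log2 fold change 3.21, adjusted p = 2.5e-08, edgeR). *Ins2* also passed the filter only through the D5 libraries. *Igf2* had 0, 1 and 1 count at D0 and 3, 4 and 7 at D5 and did not pass the filter. Of its exonic length, 62.8% is shared on the same strand with the gene model *Gm49394*, where reads of either gene cannot be assigned, so the counts of *Igf2* are uncertain and no ratio of *H19* to *Igf2* is given. The 2 small RNA rows inside *H19* on the opposite strand, *Gm27483* and *Gm27786*, held counts. Both lie wholly opposite exons of *H19*, and whether stray reads of *H19* were counted in them was not tested. *Gm27483* had 154, 197 and 363 counts at D0 and 82, 104 and 78 at D5. *Gm27786* had 155, 136 and 315 at D0 and 45, 51 and 66 at D5. They were lower at D5 (adjusted p = 0.0011 and 2.2e-05, edgeR), with D0 replicate 3 well above the other D0 libraries in both. Without D0 replicate 3 their log2 fold changes were -0.33 in place of -0.75 and -0.77 in place of -1.22, and DESeq2 gave an adjusted p of 0.077 for *Gm27483*.

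At the Peg3 locus, *Usp29*, a ubiquitin protease gene, fell further than *Peg3*. Its counts of 642, 755 and 736 at D0 were 93, 115 and 104 at D5, so that its level went from 17.8 ± 0.587 to 4.18 ± 0.482 CPM (SD, n = 3 each). The log2 fold change was -2.09 (SE 0.085, adjusted p = 5.4e-20, edgeR). *Zim1*, a maternally expressed zinc finger gene 7441 bases beyond the other end of *Peg3*, moved the other way, from 50.2 ± 2.43 to 75.3 ± 1.84 CPM (log2 fold change 0.59, adjusted p = 6.3e-14, edgeR). Under ERCC scaling the change of *Zim1* was 0.024 (adjusted p = 0.98). The gene models *Gm44862* and *Gm44863*, inside *Usp29* and on its strand, had 28, 39 and 28 and 46, 35 and 50 counts at D0 and no more than 2 in a D5 library, at least 6.55-fold and 9.13-fold lower against the limit of 3 counts.

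Ratios of counts within a library need no scaling and were compared for 4 pairs of genes, chosen after the counts had been seen. *Usp29* had 17.8, 18.3 and 18.8 counts per 1000 counts of *Peg3* at D0 and 6.36, 7.99 and 7.31 at D5, and *Zim1* had 50.6, 49.8 and 54.5 per 1000 at D0 and 132, 130 and 128 at D5. Relative to *Peg3*, the D5 ratio was 0.393 of that at D0 for *Usp29* and 2.52 times that at D0 for *Zim1*. *Peg3* had 134, 140 and 145 counts per 1000 counts of *H19* at D0 and 77.7, 71.7 and 72.4 at D5, a ratio of the ratios of 0.529. *Nctc1* per 1000 counts of *H19* went from 0.0149, 0.0102 and 0.00740 to 0.903, 0.702 and 0.866, or 78.8-fold. None of the 4 pairs overlapped between groups, and each gave p = 0.1 in an exact two-sided permutation test, the smallest that 3 libraries against 3 allow (Benjamini-Hochberg adjusted p = 0.1 over the 4 pairs, exact permutation test). Single genes did not overlap in CPM in 83.3% of those tested. The pairs were picked with the counts known, so the ratios are descriptions and these tests add no support.

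*Plagl1*, *Grb10* and *Mest* lie apart from these clusters. Beside *Plagl1*, *Sf3b5*, a splicing factor subunit, and *Ltv1*, a ribosome assembly factor 46.4 kb away, had log2 fold changes of -0.76 and -0.43 (adjusted p = 7.9e-13 and 2.3e-10, edgeR), far smaller than that of *Plagl1*, and *Ltv1* had no call under ERCC scaling (adjusted p = 0.13). Next to *Grb10*, *Cobl*, an actin nucleator, rose from 1.79 ± 0.255 to 63.6 ± 1.98 CPM, and *Ddc*, the aromatic amino acid decarboxylase on the other side of *Grb10*, went from 2.89 ± 0.516 to 4.34 ± 0.25 CPM (SD, n = 3 each). Their log2 fold changes were 5.16 (adjusted p = 5.2e-32) and 0.58 (adjusted p = 3.3e-04, edgeR), the second without a call under ERCC scaling (0.018, adjusted p = 0.98). *Copg2*, opposite *Mest*, went from 44.5 ± 1.57 to 55.3 ± 2.41 CPM (SD, n = 3 each; log2 fold change 0.31, adjusted p = 1.5e-07, edgeR), a change that was -0.23 under ERCC scaling. *Cep41*, a centrosomal protein gene next to *Mest*, fell (log2 fold change -0.91, adjusted p = 1.0e-10, edgeR). Over all 25 neighbours listed, 17 were tested, of which 11 were higher and 6 lower (42.2% and 40.8% of all genes tested), with a median of 0.41 against 0.0022 for all genes. With at least 10 counts in every library 8 were higher and 6 lower. Under ERCC scaling 5 were higher and 3 lower, where 5560 of all 16290 genes tested had a call, 67.4% of them lower.

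Among 55 other imprinted genes, 37 were tested and 16 had 3 counts or fewer in every library. Of those tested, 22 were higher, 13 lower and 2 without a call at D5, with a median log2 fold change of 0.37 beside 0.0022 for all genes, of which 42.2% were higher and 40.8% lower. Of the 17 tested genes known for maternal expression, 13 were higher, 3 lower and 1 without a call, with a median of 0.59. Of the 20 known for paternal expression, 9 were higher, 10 lower and 1 without a call, with a median of 0.034, and the difference between the lists was not tested. Some genes of both lists passed the filter on low counts only through the group where they were high. With at least 10 counts in every library, the maternal list had 10 higher and 3 lower, and the paternal list 6 and 9. Under ERCC scaling the counts were 5 higher and 0 lower for the maternal list and 3 higher and 8 lower for the paternal list. Of all 16290 genes tested, 5560 had a call under that scaling, 67.4% of them lower. Of the 5 genes described here, the maternally expressed *H19* and *Grb10* were higher (*H19* not under ERCC scaling), and of the paternally expressed ones *Mest* was higher and *Peg3* and *Plagl1* were lower.

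The largest rise in the maternal list was that of *Dcn*, a matrix proteoglycan, from 12, 13 and 20 counts at D0 to 6636, 5646 and 5812 at D5 (log2 fold change 9.32, adjusted p = 4.2e-36, edgeR). Of the 5 fibroblast markers *Pdgfra*, *Lum* and *Col1a1* rose with it, *Tcf21* was at 0 and *Thy1* had at most 1 count. Their summed level went from 18.3 to 18.7 CPM at D0 to 225 to 238 CPM at D5, and their part in the result was not tested. The largest fall in the maternal list, that of *H13*, a signal peptide peptidase, was small (log2 fold change -0.45, adjusted p = 4.2e-13, edgeR; adjusted p = 0.12 under ERCC scaling). In the paternal list *Begain* rose most and *Slc38a4*, an amino acid transporter, fell most, from 79, 102 and 110 counts to 1, 3 and 2, at least 20.1-fold lower against the limit of 3 counts.

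**Figure D4:**
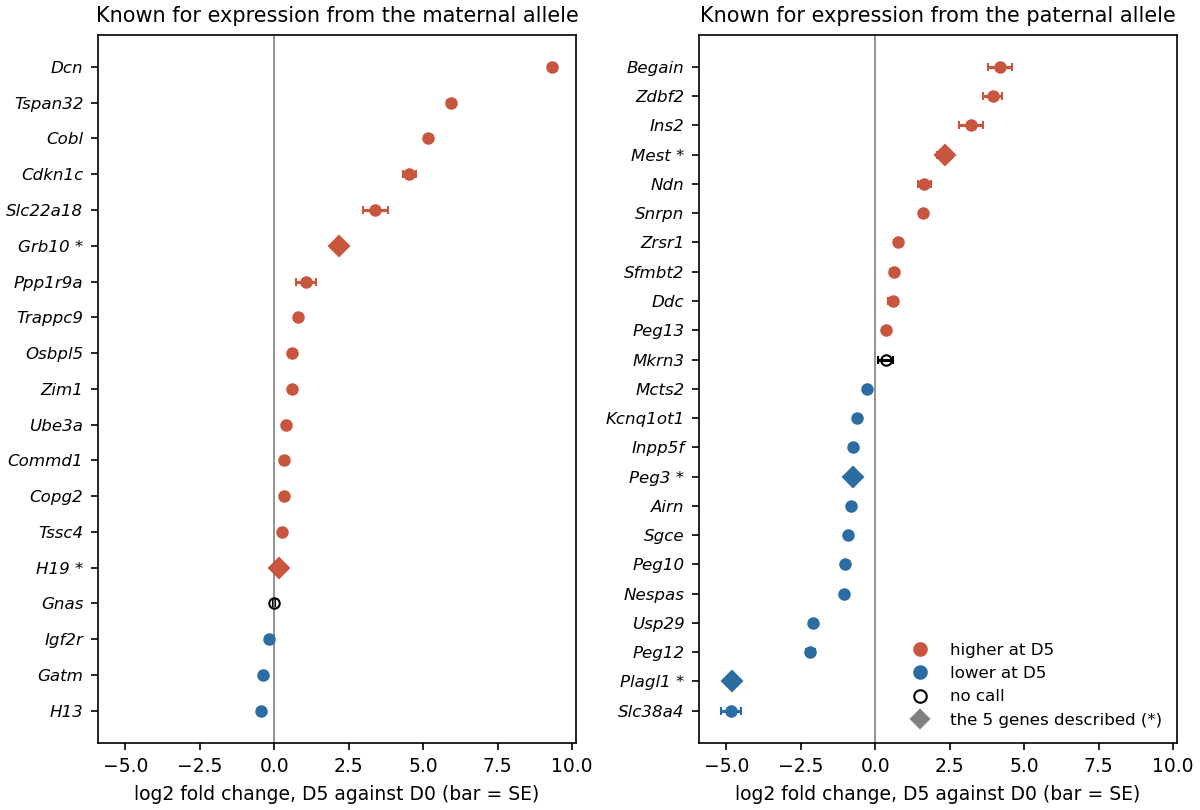
Log2 fold change, D5 against D0 (point, bar = SE from edgeR), of the tested imprinted genes known for maternal (left) and paternal (right) expression, with diamonds and asterisks for the 5 genes described. Under TMM scaling most points of the left panel lie to the right of 0 (13 higher and 3 lower among the other genes), whereas those of the right panel lie on both sides (9 higher and 10 lower).

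Genes of proteins that keep imprints in place were mostly lower at D5. Of 8 listed, 7 were tested, 1 was higher and 6 were lower, beside 40.8% of all genes tested that were lower, with a median of -1.40 against 0.0022, and *Dppa3* was at 0. The largest fall was that of *Uhrf1*, which brings the maintenance methyltransferase to newly copied DNA, from 158 ± 1.68 to 6.06 ± 0.769 CPM (SD, n = 3 each; log2 fold change -4.70, adjusted p = 8.0e-34, edgeR). *Uhrf1* and *Dnmt1*, its partner, act at DNA replication, and the proliferation markers fell with them, which was not tested further. The gene that was higher, *Zfp445*, a zinc finger protein that binds imprinted regions, changed by 0.12 on the log2 scale (adjusted p = 0.0035, edgeR), was at -0.45 under ERCC scaling (adjusted p = 0.52) and lost its call with total counts (adjusted p = 0.34) and without a filter (adjusted p = 0.12).

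Of 10 genes linked to let-7 or miR-675, the small RNAs tied to *H19*, 7 were tested and all 7 were lower, beside 40.8% of all genes tested, at a median of -0.57 against 0.0022. The other 3 did not pass the filter on low counts. *Lin28a*, an RNA-binding protein that blocks let-7 processing, had 0 counts in each D0 library and 11, 11 and 8 at D5, at least 5.34-fold higher against the limit of 3 counts. *Igf2bp1*, an RNA-binding protein, had 5, 13 and 5 counts at D0 and 12, 8 and 18 at D5, and *Lin28b* had 7, 4 and 5 at D0 and 1 in each D5 library. Without a filter, and in 5 of the 6 fits without 1 library, 2 of the 10 were higher and 7 lower. *Cdc6*, a replication licensing factor reported as a target of miR-675, fell most, from 33.2 ± 0.363 to 0.856 ± 0.379 CPM (SD, n = 3 each; log2 fold change -5.27, adjusted p = 2.4e-27, edgeR). Under ERCC scaling 2 of the 7 kept their call, where 5560 of all 16290 genes tested had one, 67.4% of them lower. Mature microRNAs were not measured, and no relation to *H19* was tested.

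The receptors and substrates through which *Grb10* and *Dlk1* are known to act changed by -0.69 to 0.28 on the log2 scale. Of the 7 listed and tested, 3 were higher and 4 lower, at a median of -0.14. Of all genes tested, 82.9% had a call, 42.2% higher and 40.8% lower, so these counts do not set the list apart. *Irs1*, a substrate of the insulin and IGF1 receptors, had the largest rise, from 201 ± 6.03 to 244 ± 6.43 CPM (log2 fold change 0.28, adjusted p = 6.4e-09, edgeR), which was -0.28 under ERCC scaling (adjusted p = 0.70). *Notch2*, a Notch receptor, had the largest fall, from 518 ± 10.8 to 322 ± 5.62 CPM (SD, n = 3 each; log2 fold change -0.69, adjusted p = 1.9e-18, edgeR). Under ERCC scaling 0 of the 7 were higher and 1 was lower by edgeR's test. Of all 16290 genes tested, 5560 had a call there, 67.4% of them lower.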

How the data were processed

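The authors deposited, for each of the 6 libraries, raw counts per gene made with featureCounts on GRCm38 (mm10), with no normalization. The labels name Tophat2 as aligner and the study's methods HISAT2, and which made these files is not settled. The annotation release and strand setting are not given in the sources used here. Of the 54525 gene rows, 99.9% matched GENCODE M21, used for positions and exonic length. Rows lying wholly under opposite-strand exons held over 3 counts in 30.2% of 453 cases, rows wholly under same-strand exons in 0.724% of 691, so strands were kept apart and same-strand overlaps were not counted. A row without a name and 92 ERCC rows were left out of library sizes.

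From the counts, edgeR 4.0.16 in R 4.3.3 gave TMM factors, CPM and, after filterByExpr, quasi-likelihood p-values, adjusted by Benjamini-Hochberg over 16290 genes, threshold 0.05. The SE was derived as the size of the log2 fold change over the square root of F. Replicates differed by more than sampling noise, so each library counts as 1 sample. A group with 3 counts or fewer in every library was treated as not detected, which covers counting error only. The test was run on simulated data in which few genes changed, unlike here, so that run does not bear on the scaling. Alternatives were DESeq2 1.42.0, upper-quartile, total counts, ERCC scaling, 2 other filters, a replicate block and each library left out. The genes and lists were chosen with earlier results of these data known. Named genes are the 9, the largest rise and fall of each list, genes sharing a locus with the 9, and small RNA rows inside them with counts. *Gm34719*, *Gm3379*, *Gm34667*, *Gm44862*, *Gm44863*, *Gm49394*, *Gm33148*, *Wdr25*, *Dnmt1*, *Lin28a*, *Lin28b* and *Igf2bp1* were named after their values were seen.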

Additional observations from a re-analysis of the deposited data

How the results depend on the processing

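The 3 rises and 2 falls among the 9 genes were the same in number under DESeq2, upper-quartile scaling, total counts, both filters and every library left out. Scaling to the ERCC spike-ins, whose share varied from 0.720% to 2.09% among the D5 libraries, turned *H19* to -0.38 (adjusted p = 0.58, edgeR), gave 5560 genes past the threshold in place of 13510, of which 67.4% were lower against 49.2%, and left 8 higher and 8 lower among the other imprinted genes in place of 22 and 13. Without the ERCC setting, the log2 fold change ranged over the alternatives from 0.087 to 0.21 for *H19*, -0.83 to -0.73 for *Peg3*, -4.99 to -4.66 for *Plagl1*, 2.06 to 2.26 for *Grb10* and 2.15 to 2.51 for *Mest*, and the number of genes past the threshold from 11494 (at least 10 counts in every library) to 15274. Leaving out each library kept 13236 to 13599 genes past the threshold, 22 to 23 other imprinted genes higher and 12 to 13 lower. The filter mattered more, with 16 higher and 12 lower at 10 or more counts in every library and 24 and 13 without a filter. *Mcts2* lost its call without D5 replicate 1 (adjusted p = 0.067) and *Mkrn3* gained one (adjusted p = 0.034, edgeR).

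With the replicate number as a block, 13558 genes passed, 3 and 2 of the 9 genes were higher and lower, and 22 and 13 other imprinted genes. Same-numbered libraries correlated at 0.0056, 0.206 and 0.080 in their deviations, and the other pairs at -0.148 to 0.072. The numbers were not taken as a pairing, though these values do not exclude one. The planned ratios *Rian*, *Mirg*, *Dlk1* and *H19* to *Meg3* and *H19* to *Igf2* gave no value because of counts of 0.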
